A study of Mus musculus with 32 samples.

Results

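The type I interferon response genes described here are a named set of 37 genes that cells switch on when they meet type I interferon, and 36 of them had a row among the 21899 genes of the deposited expression table. They were chosen by gene symbol. Mx2 was not analysed here. The set was drawn up with earlier results of these libraries known. Its changes with LPS, light and time are therefore a description of where and when its members moved. They are not independent evidence that the members would move. The study asked how light acts on astrocytes, the support cells of the brain, during inflammation. Primary mouse astrocytes were left untreated (Control) or given PBM, LPS or LPS+PBM, and were sampled after 4 h or 24 h. That makes 8 groups with 4 libraries apiece. PBM is photobiomodulation, an exposure to light, of which no source used here gives the wavelength or dose, and LPS is lipopolysaccharide, a bacterial cell wall component. LPS+PBM cells received both. No group carries a named allele, no source used here gives the strain or age, and nothing in the labels says that the 4 libraries of a group came from separate cultures or animals, so every p-value below measures the spread between these libraries, which may be technical.

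Type I interferons (interferon alpha and beta) are secreted by cells that sense microbial material. LPS is sensed by the receptor TLR4, which through the adaptor TRIF (gene Ticam1) activates the transcription factor IRF3 and with it the interferon beta gene. Interferon binds a receptor made of IFNAR1 and IFNAR2 on the same and on neighbouring cells, and the kinases JAK1 and TYK2 then activate STAT proteins, STAT2 among them. With IRF9 these form a complex, ISGF3, which binds a DNA element called the interferon-stimulated response element (ISRE) in front of the antiviral genes. In the brain astrocytes are known both as a source of interferon beta and as cells that respond to it.

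The promoters below are shown because they carry the ISRE letters, which some members share although the set was chosen by name. RefSeq promoter windows of GRCm38.p6, running from 250 bases before to 50 bases after the annotated start, were found for 28 of the 37 members. An ISRE core was read as GAAA and, after any 2 bases, GAAA again, and searched on both strands. It was in a window of 13 of these 28 genes (46.4%) and of 1079 of all 27025 genes with a RefSeq window (4.0%). The core of the STAT dimer element GAS, TTCNNNGAA, was searched the same way and was present in 7 of the 28 (25.0%) and in 2582 of the 27025 (9.6%). The 2 motifs can overlap each other. Each line gives 30 bases around 1 match, 5′ to 3′ on the strand of the gene, with the ISRE core in capitals (its reverse complement where the match lies on the other strand).
Ifit1, chr19:34640794-34640823, plus strand: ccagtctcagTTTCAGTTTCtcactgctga
Ifit3, chr19:34583397-34583426, plus strand: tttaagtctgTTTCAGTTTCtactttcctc
Ifit3b, chr19:34607793-34607822, plus strand: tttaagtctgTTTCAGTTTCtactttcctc
Rsad2, chr12:26456553-26456582, minus strand: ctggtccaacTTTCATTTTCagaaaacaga
Isg15, chr4:156200865-156200894, minus strand: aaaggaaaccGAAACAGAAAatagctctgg
Stat2, chr10:128270266-128270295, plus strand: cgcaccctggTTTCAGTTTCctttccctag
Oas1a, chr5:120907520-120907549, minus strand: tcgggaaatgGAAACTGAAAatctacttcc
Oas3, chr5:120777715-120777744, minus strand: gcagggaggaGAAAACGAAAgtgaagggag
Ifih1, chr2:62646206-62646235, minus strand: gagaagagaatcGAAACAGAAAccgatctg
Bst2, chr8:71537577-71537606, minus strand: ccaggaaaatGAAACTGAAAggctgcagtt
Trim30a, chr7:104465210-104465239, minus strand: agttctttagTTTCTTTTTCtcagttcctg
Ifitm3, chr7:141010723-141010752, minus strand: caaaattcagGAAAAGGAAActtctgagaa
Eif2ak2, chr17:78882535-78882564, minus strand: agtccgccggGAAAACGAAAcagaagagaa
Ifit3 and Ifit3b, neighbouring genes of near-identical sequence, have the same 30 bases. The match begins 85 bases before the start in Ifit1, 122 before it in Ifit3, 120 before it in Rsad2 and 66 before it in Isg15, while in Ifih1, Ifitm3 and Eif2ak2 it lies after the annotated start. A match is a run of letters only: no binding was measured.

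The whole windows of 3 members whose levels stood far apart in unstimulated cells are given next, Rsad2 among the lowest and Isg15 among the highest, with Ifit1 between them. All ISRE cores found in them are in capitals, 2 in Ifit1, 1 in Rsad2 and 3 overlapping in Isg15.
Ifit1, chr19:34640639-34640938, plus strand: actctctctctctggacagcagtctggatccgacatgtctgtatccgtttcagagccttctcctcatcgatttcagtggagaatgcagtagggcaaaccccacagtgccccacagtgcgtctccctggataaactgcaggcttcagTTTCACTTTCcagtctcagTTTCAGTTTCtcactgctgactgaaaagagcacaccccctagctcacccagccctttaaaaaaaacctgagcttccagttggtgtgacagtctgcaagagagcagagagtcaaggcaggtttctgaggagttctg
Rsad2, chr12:26456403-26456702, minus strand: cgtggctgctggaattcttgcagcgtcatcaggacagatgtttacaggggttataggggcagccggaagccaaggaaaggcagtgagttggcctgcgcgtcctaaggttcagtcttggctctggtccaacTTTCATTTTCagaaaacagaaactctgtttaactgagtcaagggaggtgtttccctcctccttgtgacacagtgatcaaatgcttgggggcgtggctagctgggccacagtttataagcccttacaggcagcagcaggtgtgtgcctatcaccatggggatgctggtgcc
Isg15, chr4:156200769-156201068, minus strand: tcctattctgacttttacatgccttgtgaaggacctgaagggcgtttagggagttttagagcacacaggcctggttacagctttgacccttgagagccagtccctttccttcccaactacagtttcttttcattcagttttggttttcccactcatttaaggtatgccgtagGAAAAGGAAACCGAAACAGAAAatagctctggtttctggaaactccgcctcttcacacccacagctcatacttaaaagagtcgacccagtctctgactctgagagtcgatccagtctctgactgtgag

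All levels are FPKM, fragments scaled to transcript length and to the size of the library, as the authors deposited them. The steps in which FPKM values of single-transcript genes come correspond to only 130767 to 143853 fragments per library, with 92.28% of 23614 values checked lying within 0.05 of a whole fragment. A level of about 7 FPKM in a gene 1 kb long is then 1 fragment (6.95 to 7.65). In such a gene 3 fragments, the limit that a count of 0 allows, are 20.9 to 22.9 FPKM. For a longer gene the same fragments give a lower FPKM. The range of 10136 to 10777 genes above 0 in a library reflects the same depth, and an exact 0 can also be a failed estimate, since the housekeeping gene Ppia had a 0 in 14 libraries. Across genes, libraries of 1 group correlated at r = 0.879 to 0.892 and libraries of different groups at 0.850 to 0.892. All 12 astrocyte markers had a row and none of the defining ones was at 0 throughout (summed level 2391 to 2828 FPKM in Control 4 h). All 20 markers of microglia and macrophages also had a row and summed to 2129 to 2805 FPKM in those libraries, so the cultures also held RNA of microglial genes. In bulk RNA, fewer cells of a type and less RNA per cell cannot be told apart. By sequence, reads of 8 members can be split with another gene: Ifit3 and Ifit3b share 51.2% and 45.0% of their 50-base words, Oas1a shares 57.6% with Oas1g, Herc6 23.8% with Gm45193, Rtp4 11.6% with Gm45338, Ifitm3 10.0%, Ifit1 7.1% and Trim30a 6.5%. The exons of 13 members overlap another gene, the longest coding pair being Parp9 and Dtx3l on opposite strands (458 bases), and no source used here says whether counting used the strand.

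Several members lie side by side in the genome (GENCODE M21, GRCm38). Ifit2 (chr19:34550694-34576419), Ifit3 (chr19:34583531-34588731), Ifit3b (chr19:34607970-34613401) and Ifit1 (chr19:34640871-34650009) follow one another on the plus strand of chromosome 19. Rsad2 (chr12:26442746-26456452, minus strand) and Cmpk2 (chr12:26469204-26479837, plus strand) stand head to head on chromosome 12. Parp14 (chr16:35832874-35871544), Dtx3l (chr16:35926511-35939151) and Parp9 (chr16:35938470-35972605) are neighbours on chromosome 16. On chromosome 5 the set has Oasl2 (chr5:114896936-114912234) beside Oasl1 (chr5:114923240-114937915), and Oas2 (chr5:120730333-120749853) beside Oas3 (chr5:120753098-120777661). Values were given per gene, so isoforms were not separated.

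Averaged over the members, the level was lowest in unstimulated cells at 4 h and highest 4 h after LPS, and by 24 h the groups had moved towards each other, while single members peaked in different groups. The group mean was lowest in Control 4 h for 35 of the 36 members. The exception was Zbp1, a sensor of Z-form nucleic acid, which was lowest in PBM 4 h. The mean was highest in LPS 4 h for 11 members, in LPS+PBM 4 h for 9, in LPS 24 h for 7, in PBM 24 h for 6 and in LPS+PBM 24 h for 3. At 24 h the top group differed by gene: Stat2, Irf9, Oas2, Oasl2, Dhx58 and Eif2ak2 were highest in PBM, Ifitm3, Bst2, Zbp1, Lgals3bp, Ifi44, Xaf1 and Herc6 in LPS, and Irf7, Oas1a and Trim30a in LPS+PBM.

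**Figure D1:**
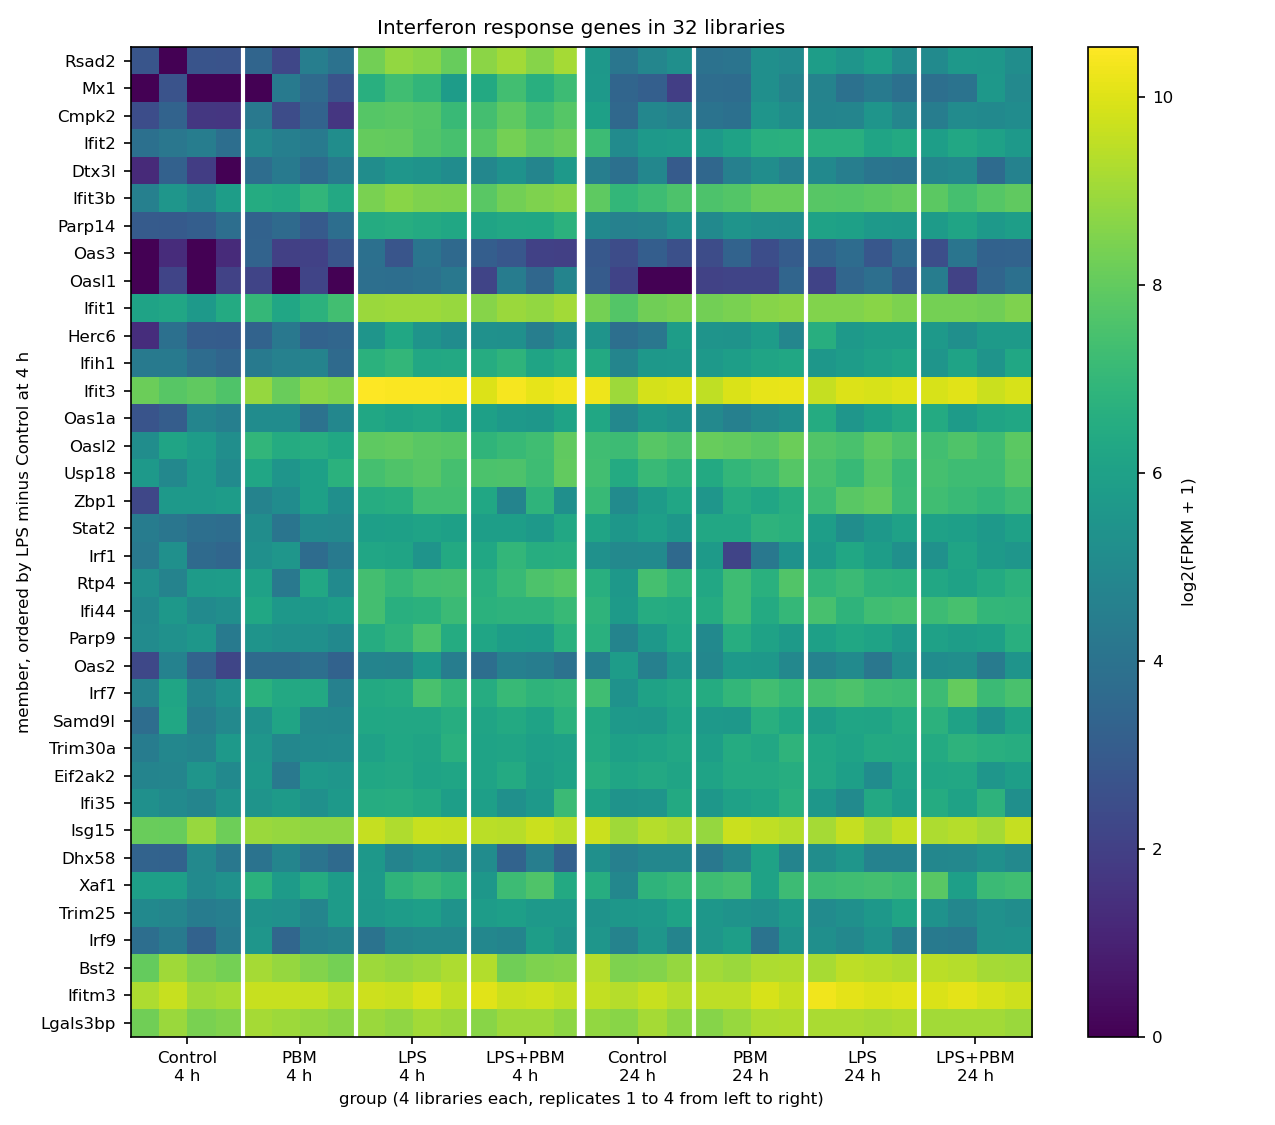
Level of each of the 36 members in each of the 32 libraries as a colour scale of log2(FPKM + 1), with members in rows, ordered by the fitted difference between LPS and Control at 4 h, and libraries in columns, 4 per group with white lines between the groups. Control 4 h holds the darkest columns: 35 of the 36 members have their lowest group mean there.

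Averaged over the 36 members on the log2(FPKM + 1) scale, the libraries of Control 4 h stood at 4.3 to 4.958 and those of PBM 4 h at 5.175 to 5.475, with no overlap. LPS 4 h libraries were the highest, at 6.807 to 6.993, and LPS+PBM 4 h lay at 6.576 to 6.854, overlapping them. At 24 h the range was 5.6 to 6.538 in Control, 5.975 to 6.536 in PBM, 6.454 to 6.504 in LPS and 6.388 to 6.531 in LPS+PBM. In the order of group means (Control 4 h, PBM 4 h, Control 24 h, PBM 24 h, LPS+PBM 24 h, LPS 24 h, LPS+PBM 4 h, LPS 4 h) the lowest 2 groups overlapped with no other group, while the neighbours Control 24 h and PBM 24 h, PBM 24 h and LPS+PBM 24 h, LPS+PBM 24 h and LPS 24 h, and LPS+PBM 4 h and LPS 4 h overlapped. LPS 24 h and LPS+PBM 4 h did not overlap. At 24 h the 2 groups without LPS were also the more spread: Control 24 h replicate 1 was the highest of its group for 23 members and replicate 2 the lowest for 28, and PBM 24 h replicate 1 was the lowest of its group for 23. In LPS 24 h each library was the highest for between 8 and 11 members.

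**Figure D2:**
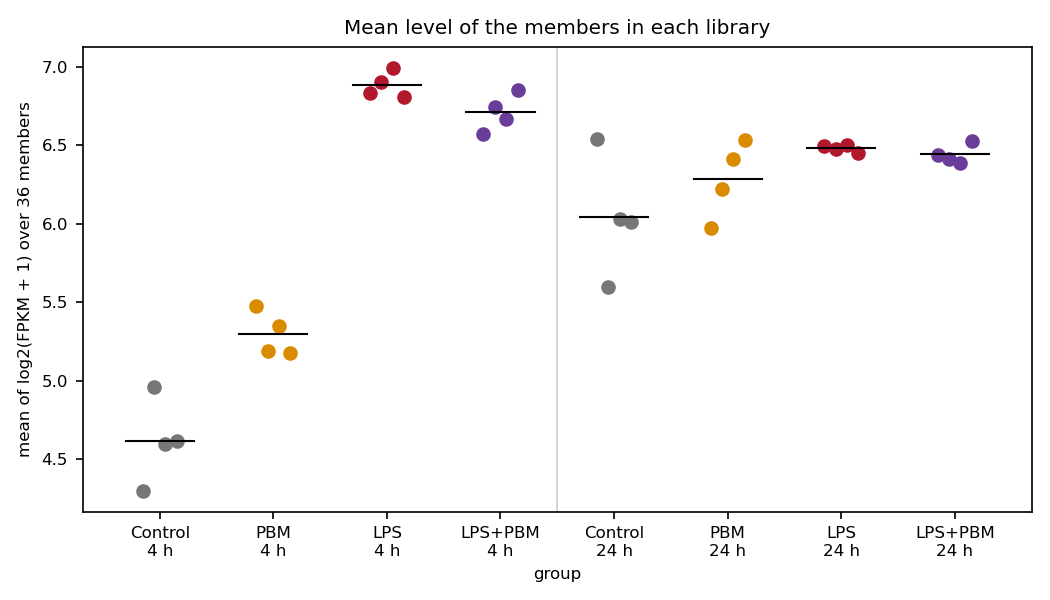
Mean of log2(FPKM + 1) over the 36 members (vertical axis) in each library, by group. Points are libraries and bars are group means, which run from 4.618 in Control 4 h to 6.885 in LPS 4 h; Control 24 h is the widest group, from 5.6 to 6.538.

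LPS for 4 h raised most members, among them effectors, sensors and transcription factors, while some members of each of these kinds were not called. Of the 36 members, 25 were called higher and 0 lower (limma on log2(FPKM + 1), Benjamini-Hochberg adjusted over 13247 genes, 1.75% of which were called higher). All 36 fitted differences were above 0, with a median of 1.92 log2 units against -0.07 over all genes tested, and 28 members did not overlap between the groups (3.65% of all genes did not overlap in that direction). Called differences ran from 0.99 to 6.40. Here and below a difference is in log2(FPKM + 1) units with its standard error, a scale that understates the change of genes with low levels. The 11 members not called lay between 0.40 and 2.89, and were Irf9, Dhx58, Oas2, Oasl1, Zbp1, Bst2, Ifitm3, Lgals3bp, Ifi35, Xaf1 and Samd9l. Beside this, 14 of 18 microglial markers tested were below 0 and 1, Fcgr3, fell, the summed level being 1409 to 1978 FPKM with LPS and 2129 to 2805 without. Of 12 astrocyte markers 9 were below 0 and 0 called, with sums of 1764 to 2278 FPKM with LPS and 2391 to 2828 without. Fibroblast and meninges markers summed to 1310 to 1670 FPKM with LPS and 1685 to 2043 without, and 1 of 9, Col1a1, was called lower. Whether these shifts bear on the members was not tested.

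The IFIT proteins bind viral RNA and block its translation. Ifit1 stood at 67.5, 74.0, 49.0 and 86.7 FPKM in Control and at 497, 505, 501 and 482 FPKM in LPS libraries, a fitted log2 difference of 2.85 ± 0.20, adjusted p = 3.09e-08. Ifit3, which stabilises the human IFIT1 complex, read 290.0, 224, 247 and 195 FPKM in Control and 1478, 1431, 1424 and 1382 FPKM with LPS (2.59 ± 0.14, adjusted p = 8.09e-10). In both genes every LPS library was several-fold above every Control library, and the 4 LPS libraries differed little from each other. The neighbours Ifit2 (3.72 ± 0.23, adjusted p = 5.59e-09) and Ifit3b (3.27 ± 0.24, adjusted p = 3.64e-08) rose as well, from means of 16.1 ± 3.67 and 38.9 ± 14.8 FPKM (SD, n = 4) to 224 ± 42.2 and 364 ± 28.8 FPKM.

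The 3 largest differences were those of Rsad2, Mx1 and Cmpk2, which were near 0 in unstimulated cells. Rsad2 encodes viperin, which makes a chain-terminating nucleotide that stops viral RNA synthesis, and Cmpk2, beside it, a nucleotide kinase that supplies the substrate. Rsad2 read 5.92, 0, 5.74 and 5.54 FPKM in Control, about 9 fragments over the group, and 314, 447, 403 and 271 FPKM with LPS (6.40 ± 0.52, adjusted p = 2.09e-07). Cmpk2 ranged from 2.18 to 9.10 FPKM in Control and from 141 to 228 FPKM with LPS (5.31 ± 0.46, adjusted p = 4.57e-07). Mx1, a GTPase that traps viral particles, was listed at 0, 5.40, 0 and 0 FPKM in Control and at 97.7, 158, 122 and 55.7 FPKM with LPS (6.01 ± 0.75, adjusted p = 4.78e-05). For Mx1 and Rsad2 the size of the fitted difference depends on the 1 FPKM added to each value, since Control libraries were at or near 0, while the groups lay far apart in both.

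Isg15 is a ubiquitin-like protein attached to other proteins, and Usp18 is the enzyme that removes it and also blocks the interferon receptor. Isg15 was already abundant in unstimulated cells, at 276, 269, 474 and 298 FPKM, and reached 775, 613, 802 and 769 FPKM with LPS (1.20 ± 0.15, adjusted p = 4.21e-05). Usp18 went from 50.6, 28.8, 49.0 and 31.5 FPKM to 170.0, 196, 221 and 171 FPKM (2.25 ± 0.26, adjusted p = 1.35e-05). Neither gene overlapped between the groups. The ligase genes Herc6, which attaches Isg15 in mice, and Trim25, which modifies the RNA sensor RIG-I, rose too (2.73 ± 0.46 and 0.99 ± 0.25), but Trim25 lost its call in 10 of 17 alternative settings.

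Among transcription factors, Stat2, the interferon-specific STAT, went from 20.4, 16.6, 13.2 and 12.7 FPKM to 60.4, 61.7, 68.4 and 62.3 FPKM, with no overlap (1.96 ± 0.28, adjusted p = 0.000172). Irf7, which amplifies interferon alpha production, read 25.4, 72.2, 26.8 and 39.6 FPKM in Control and 83.5, 89.3, 180.3 and 125 FPKM with LPS (1.58 ± 0.40, adjusted p = 0.0415), and its call was lost in 9 of 17 settings. Irf1, an early interferon- and cytokine-induced activator, rose by 1.89 ± 0.41. Irf9, the DNA-binding subunit of ISGF3, was not called (0.71 ± 0.42, adjusted p = 0.545).

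Some sensors of foreign RNA passed the test and others did not. Ifih1, the long double-stranded RNA sensor MDA5, read 18.7, 18.5, 12.3 and 9.90 FPKM in Control and 104, 123, 78.1 and 81.2 FPKM with LPS (2.64 ± 0.30, adjusted p = 1.09e-05). Oasl2, a member of the oligoadenylate synthetase family that activates RNA decay, read 34.7, 70.9, 54.9 and 36.3 FPKM and 243, 256, 226 and 218 FPKM (2.30 ± 0.25, adjusted p = 6.24e-06). Zbp1 read 3.75, 49.9, 50.1 and 56.1 FPKM and 91.0, 96.4, 163 and 159 FPKM. Its groups did not overlap, yet Control replicate 1 lay far below the others and the difference of 2.10 ± 0.63 was not called (adjusted p = 0.104). Oas1a and Oas3 rose by 2.35 ± 0.40 and 2.92 ± 0.60, the second from about 1 fragment over the 4 Control libraries, and Eif2ak2, the kinase PKR that halts translation, by 1.22 ± 0.29, with a call lost in 9 settings. Dhx58, the regulator LGP2, was not called (1.12 ± 0.46), nor were Oas2 (1.75 ± 0.48) and Oasl1 (2.89 ± 0.76).

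Parp14, an ADP-ribosyltransferase of the macrophage and antiviral response, read 7.05, 6.87, 7.81 and 13.2 FPKM in Control and 87.0, 93.7, 86.1 and 75.9 FPKM with LPS (3.20 ± 0.29, adjusted p = 5.96e-07). Parp9 and its partner, the ubiquitin ligase Dtx3l, rose by 1.77 ± 0.30 and 3.69 ± 0.51, the second from a Control range of 0 to 8.73 FPKM. Membrane and secreted members that were high from the start were not called. Ifitm3, which blocks viral entry, read 595, 794, 523 and 566 FPKM in Control and 857, 810.0, 987 and 743 FPKM with LPS, and the groups overlapped. Bst2, the tether that holds budding virions, read 264, 524, 375 and 317 FPKM and 507, 465, 512 and 608 FPKM. Bst2 overlapped as well, and the differences were 0.46 ± 0.13 and 0.54 ± 0.22. Of the remaining members, the RNA-binding protein Rtp4 (1.88 ± 0.37), Ifi44 (1.77 ± 0.22) and the ubiquitin ligase Trim30a (1.36 ± 0.26) rose.

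**Figure D3:**
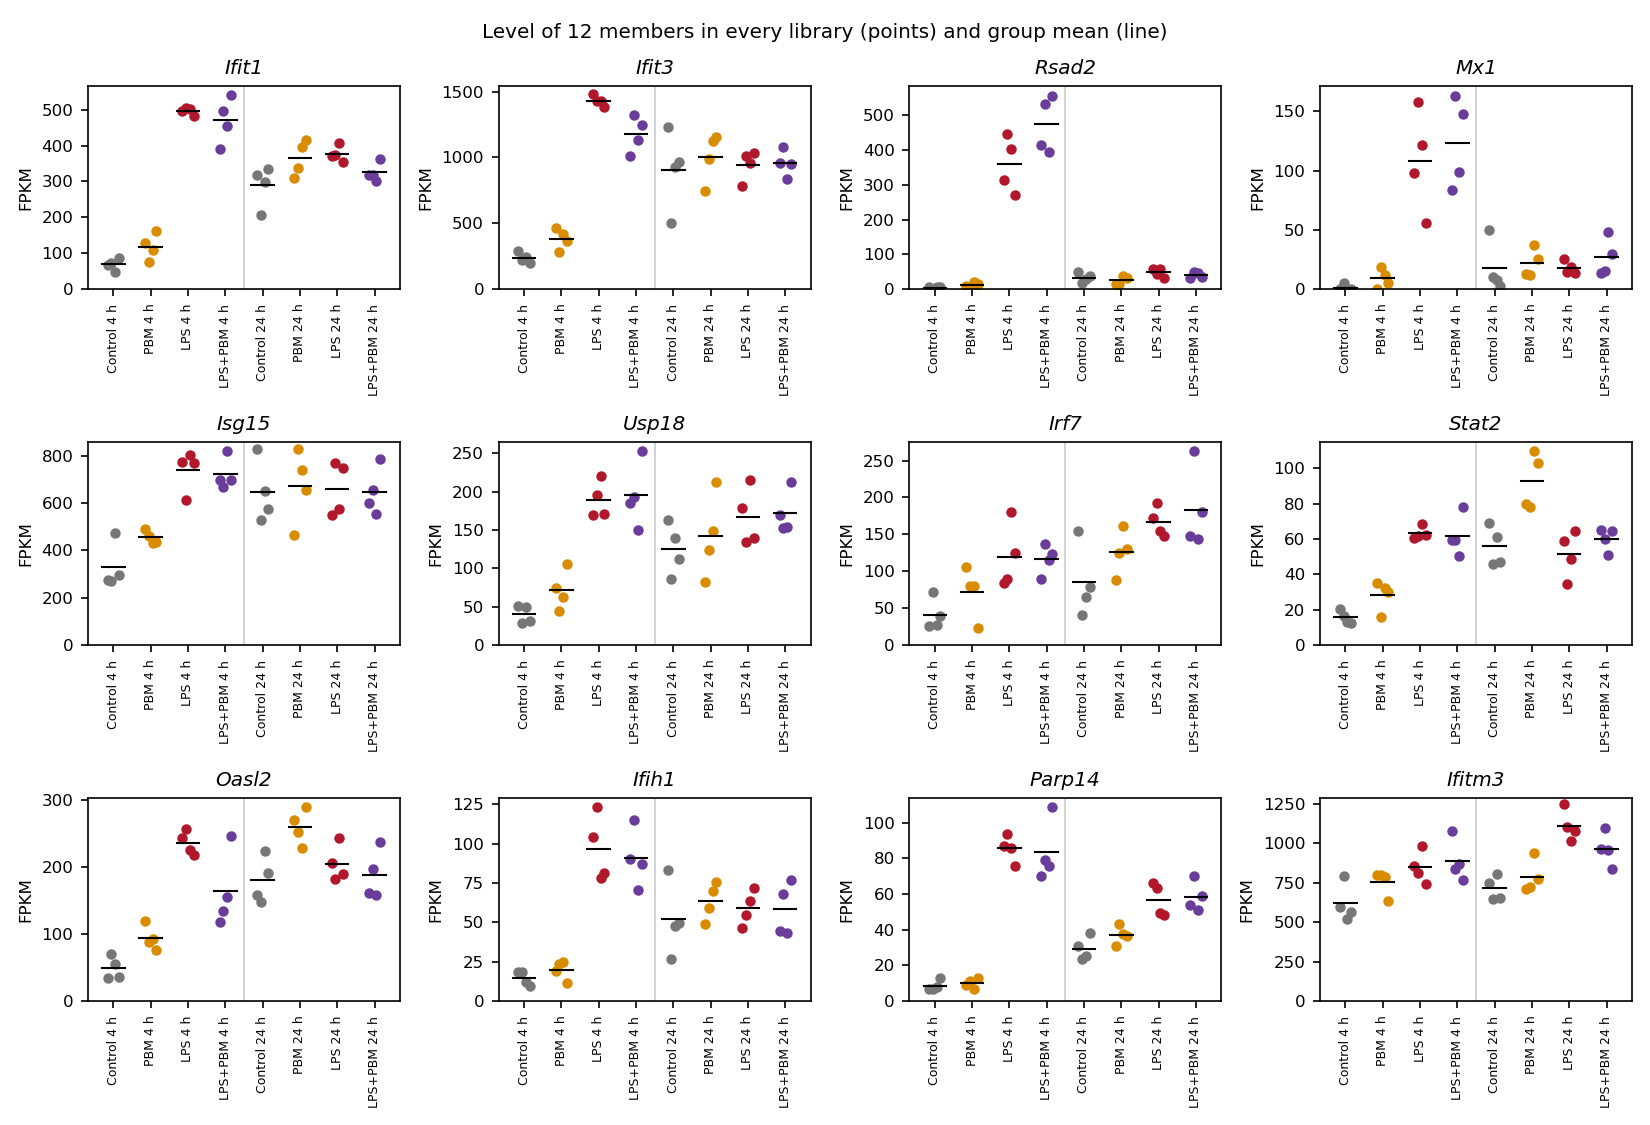
Level in FPKM (vertical axis) of 12 members in every library, with 1 panel per gene and libraries grouped by treatment and time; points are libraries and short lines group means, and a grey line parts 4 h from 24 h. Ifit1 is lowest in Control 4 h (49.0 to 86.7 FPKM) and highest in LPS 4 h (482 to 505 FPKM), and Rsad2 runs from 0 to 5.92 FPKM in Control 4 h and from 271 to 447 FPKM in LPS 4 h.

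Without LPS most members were higher at 24 h than at 4 h in Control, and fewer were called in PBM. In Control, 22 of 36 members were called higher at 24 h than at 4 h and 0 lower (0.596% of 13937 genes were called higher), and the 22 make up 26.5% of the 83 genes called higher. All 36 fitted differences were above 0 (median 1.30, against 0.00 over all genes), and 20 members did not overlap between the times (2.75% of all genes). The ratio of group means had a median of 2.52, was above 1 for all 36 and was lowest, at 1.15, for Ifitm3. In PBM, 14 were called higher (0.509% of genes) with a median of 0.96, and 14 did not overlap (2.44% of genes). Fitted without the libraries of the other treatments, the counts were 6 in Control and 7 in PBM. Of the 14 PBM members, 13 were also called in Control, 59.1% of the Control list and 92.9% of the PBM list. The summed microglial markers overlapped between Control 4 h (2129 to 2805 FPKM) and Control 24 h (2266 to 2499 FPKM), and 0 of 20 were called. The summed fibroblast and meninges markers were higher at 24 h with no overlap, from 1685 to 2043 FPKM at 4 h to 2094 to 2378 FPKM at 24 h in Control (Col1a2 called) and from 1667 to 1827 FPKM to 2230 to 2665 FPKM in PBM (Col1a2 and Col1a1 called), and their part in the rise of the members was not tested. Time in culture and any handling that differed between the times cannot be told apart.

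Among the effectors in Control at 24 h, Ifit1 read 317, 208, 299 and 334 FPKM (2.05 ± 0.18, adjusted p = 1.38e-08 against 4 h). Ifit3 read 1230.1, 500.0, 924 and 967 FPKM, with a difference of 1.86 ± 0.18, adjusted p = 7.89e-08. Ifit1 and Ifit3 were above every 4 h Control library in each 24 h library. Rsad2 read 48.1, 16.6, 27.8 and 36.4 FPKM, up by 2.89 ± 0.47, adjusted p = 0.000464. Mx1 was at 50.3, 9.86, 8.11 and 2.84 FPKM (2.89 ± 0.73, adjusted p = 0.0395), where replicate 1 stood apart, and its call was lost in 10 of 16 settings. Ifit3b (2.19 ± 0.22, adjusted p = 8.56e-08), Ifit2 (1.87 ± 0.30, adjusted p = 0.000393) and Cmpk2 (2.46 ± 0.47, adjusted p = 0.00324) rose with them.

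Of the regulators and sensors in Control 24 h, Stat2 read 69.0, 46.1, 61.4 and 47.0 FPKM, Oasl2 158, 148, 223 and 192 FPKM and Usp18 163, 86.8, 139.7 and 112 FPKM. These rose by 1.77 ± 0.24, adjusted p = 3.22e-05, 1.89 ± 0.21, adjusted p = 7.23e-07, and 1.63 ± 0.26, adjusted p = 0.000393 in that order, and none overlapped with 4 h. Parp14 was at 30.7, 23.6, 25.3 and 38.1 FPKM (1.66 ± 0.24, adjusted p = 6.28e-05) and Ifih1 at 83.4, 26.8, 47.9 and 49.8 FPKM (1.68 ± 0.30, adjusted p = 0.00122). Isg15 read 830.4, 527, 651 and 577 FPKM (0.99 ± 0.17, adjusted p = 0.000781), and Dtx3l rose by 2.46 ± 0.49, adjusted p = 0.00453. Irf7 at 155, 40.1, 65.3 and 79.3 FPKM, Zbp1 at 135, 33.0, 54.6 and 74.9 FPKM, Ifitm3 at 749, 649, 807 and 654 FPKM and Bst2 at 651, 362, 379 and 463 FPKM overlapped their 4 h libraries and were not called.

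With LPS the direction over time was the opposite for some effectors and the levels of most members were close. Between 4 h and 24 h in LPS, 3 members were called lower and 0 higher (0.804% of genes were called lower), 27 of 36 differences were below 0 and the median was -0.20 (0.00 over all genes). These were Rsad2 (-2.88 ± 0.47, adjusted p = 0.000322), Cmpk2 (-2.64 ± 0.47, adjusted p = 0.000969) and Ifit2 (-1.34 ± 0.30, adjusted p = 0.012). In all, 11 members were lower at 24 h with no overlap (3.29% of genes) and 3, Ifitm3, Lgals3bp and Xaf1, were higher with none (2.98% of genes). In LPS+PBM the same 3 genes fell (1.68% of genes were called lower): Rsad2 with -3.54 ± 0.47, adjusted p = 1.08e-05, Cmpk2 with -2.69 ± 0.47, adjusted p = 0.000542 and Ifit2 with -2.04 ± 0.30, adjusted p = 4.76e-05. The overlap is 3 of 3, 100.0% of each list. These counts depended on the fit. In LPS the count was 0 without the 6 libraries listed last in the table, 6 with the groups compared alone and 8 with limma-voom, and in LPS+PBM it was 7 with limma-voom. Summed astrocyte markers were lower at 24 h in both treatments. In LPS they summed to 1764 to 2278 FPKM at 4 h and 1214 to 1667 FPKM at 24 h. Of the single markers there only Vim was called lower, with 6 of 12 below 0, 5 above and a median of -0.02. In LPS+PBM the sums were 2292 to 2741 and 1157 to 1590 FPKM, 11 of 12 were below 0, and Vim, Apoe, Sox9 and Gfap were called lower. Of the fibroblast and meninges markers 2 were called higher in LPS and 3 in LPS+PBM. Their part in the fall of the members was not tested.

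Rsad2 read 57.5, 43.9, 58.2 and 32.8 FPKM in LPS at 24 h, a mean of 0.134 times that at 4 h. Mx1 read 25.1, 14.1, 18.9 and 14.0 FPKM (-2.47 ± 0.73, adjusted p = 0.0979), not called though it did not overlap with 4 h. Ifit1 at 372, 375, 406 and 354 FPKM and Ifit3 at 783, 1009.6, 958 and 1033 FPKM were lower than in each 4 h LPS library, with differences of -0.40 ± 0.18 and -0.60 ± 0.18 that were not called. Over all members the ratio of the LPS means at 24 h and 4 h had a median of 0.862 and was above 1 for 9. Zbp1 had the highest ratio, 1.51, at 146, 228, 253 and 145 FPKM. While Rsad2, Cmpk2 and Ifit2 fell, Ifitm3, at 1252, 1107, 1018 and 1076 FPKM, and Bst2, at 567, 711, 667 and 617 FPKM, had their highest group mean here.

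**Figure D4:**
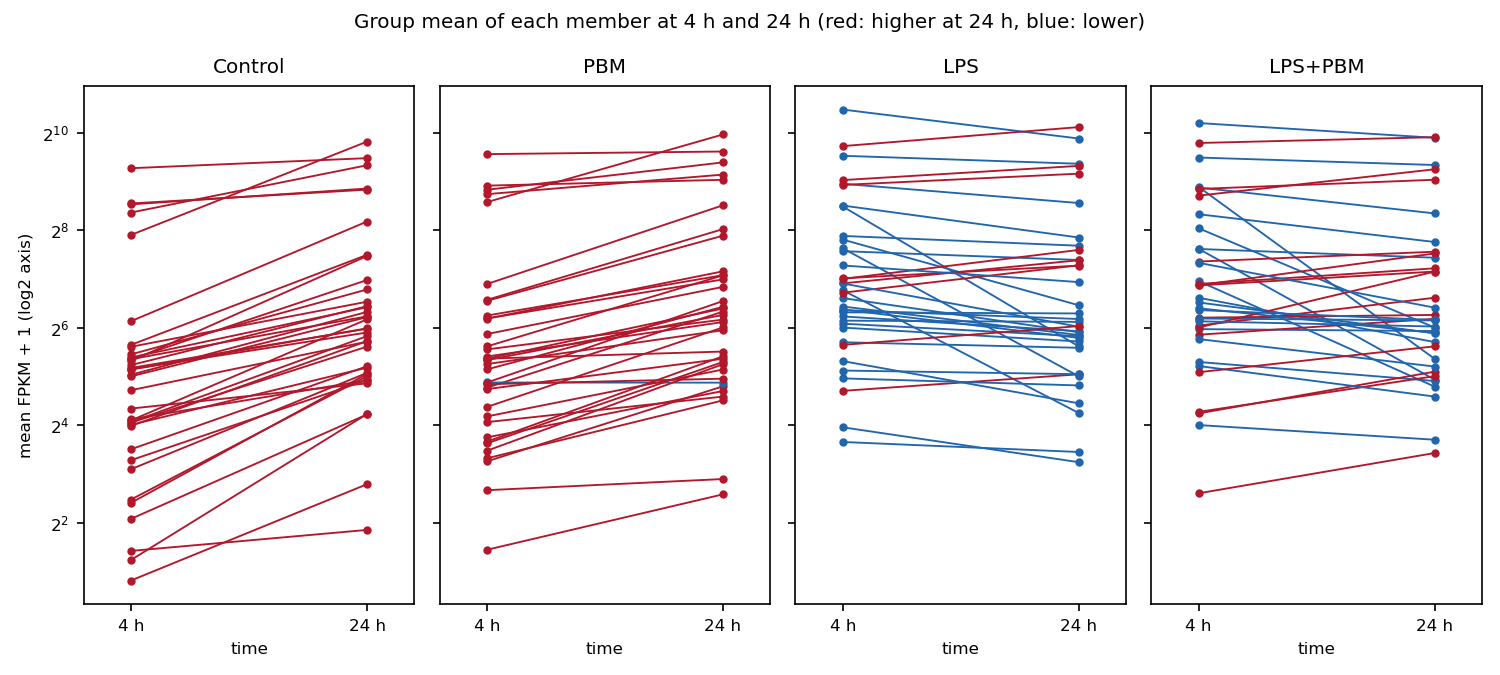
Group mean of each of the 36 members at 4 h and at 24 h on a log2 axis of FPKM + 1, with 1 panel per treatment and 1 line per member, red where the 24 h mean is higher and blue where it is lower. All 36 lines rise in Control, and 9 rise in LPS.

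At 24 h few members differed between LPS and Control by the test. A total of 3 of 36 were called higher and 0 lower (1.62% of 13278 genes were called higher): Ifitm3 (0.64 ± 0.11, adjusted p = 0.00157), Zbp1 (1.50 ± 0.33, adjusted p = 0.0163) and Parp14 (0.94 ± 0.23, adjusted p = 0.0369). Parp14 read 66.2, 63.2, 49.5 and 48.2 FPKM with LPS. These 3 did not overlap between the groups, nor did Ifit1, Xaf1 and Lgals3bp (6 in all; 3.59% of genes). The median difference was 0.37, against -0.05 over all genes, and 30 of 36 were above 0. The count rested on single libraries: it was 1 without Control 24 h replicate 2, Control 24 h replicate 3 or LPS 24 h replicate 3, 5 without Control 24 h replicate 1, and 1 when the groups were fitted alone. Among astrocyte markers 11 of 12 were below 0 at 24 h and Vim, Gfap and Apoe fell, the summed level being 1214 to 1667 FPKM with LPS and 2528 to 2863 without. Of 20 microglial markers 14 were below 0, with 3 called lower and 1 higher. Acta2 and Tagln, of the endothelial and mural markers, were called lower, and Dcn, of the fibroblast and meninges markers, higher. The part of all these markers in the member values was not tested.

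The remaining genes followed by library give the same picture of overlap at 24 h. Isg15 read 549, 769.9, 574 and 747 FPKM with LPS, Usp18 178, 134, 216 and 140.0 FPKM and Oasl2 205, 181, 243 and 189.8 FPKM. Stat2 was at 59.1, 34.5, 48.5 and 64.7 FPKM, Ifih1 at 46.2, 54.8, 63.5 and 71.8 FPKM and Irf7 at 172, 192, 155 and 147 FPKM. Each of these 6 overlapped with Control 24 h, and their log2 differences were 0.04 ± 0.17, 0.42 ± 0.25, 0.20 ± 0.17, -0.13 ± 0.23, 0.27 ± 0.30 and 1.12 ± 0.30.

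The test of the difference itself, the LPS effect at 24 h minus that at 4 h over all 32 libraries, called 15 members lower and 0 higher (0.431% of genes were called lower), which is 25.0% of the 60 genes called lower. The median of the 36 was -1.60 (0.00 over all genes) and 35 were below 0. The smallest adjusted p belonged to Ifit1 (-2.45 ± 0.25, adjusted p = 9.23e-07), Ifit3 (-2.46 ± 0.26, adjusted p = 9.23e-07), Ifit3b (-2.85 ± 0.31, adjusted p = 1.3e-06), Rsad2 (-5.78 ± 0.67, adjusted p = 3.84e-06), Cmpk2 (-5.10 ± 0.67, adjusted p = 2.79e-05), Ifit2 (-3.22 ± 0.42, adjusted p = 2.91e-05), Oasl2 (-2.10 ± 0.30, adjusted p = 9.32e-05) and Parp14 (-2.26 ± 0.34, adjusted p = 0.000184). The 4 largest changes were those of Rsad2, Mx1 (-5.36 ± 1.03, adjusted p = 0.00657), Cmpk2 and Dtx3l (-3.37 ± 0.69, adjusted p = 0.0114). The difference holds 2 terms, the change over time in LPS libraries and that in Control libraries. For Ifit1 they were -0.40 ± 0.18 and 2.05 ± 0.18, and for Rsad2 -2.88 ± 0.47 and 2.89 ± 0.47, so in Ifit1 the later Control level made up the greater share and in Rsad2 the 2 terms were alike in size.

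Light alone went with slightly higher member levels at 4 h, but no single member passed the test. In PBM against Control at 4 h, 0 of 36 were called by limma (0.0151% of 13247 genes were called higher) and 0 by the fragment-based limma-voom fit. At an unadjusted p under 0.05 17 members were higher and 0 lower (2.84% of genes were higher). The fitted difference was above 0 for all 36 members, with a median of 0.62 log2 units, against 0.00 over all genes, where 50.0% were above 0. The members were read in the same libraries and chosen with earlier results known. These counts therefore describe the set and are not repeated evidence of a light effect. With quantile-normalised values it was above 0 for 35, and with 1 library left out for 32 to 36, the lowest without Control 4 h replicate 1 (median 0.56); the lowest median, 0.47, was that without PBM 4 h replicate 1. Ifit3b alone was called when all 32 libraries were in 1 fit, and 1 member was called without Control 4 h replicate 2, 3 or 4 or PBM 4 h replicate 2. A total of 5 did not overlap between the groups, Ifit3b, Dtx3l, Oasl2, Oas3 and Ifi44 (1.19% of genes). Control 4 h libraries are shared by this comparison, the LPS comparison and the time comparison in Control. A low Control 4 h would move all 3 together. The same libraries also enter the LPS by PBM interaction at 4 h and the changes of the LPS and light effects between the times. For Ifit1 the differences side by side were 0.74 ± 0.20 for light, 2.85 ± 0.20 for LPS and 2.05 ± 0.18 for time, and for Bst2 0.23 ± 0.22, 0.54 ± 0.22 and 0.33 ± 0.20.

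The smallest adjusted p in this comparison belonged to Ifit3b, at 1.29 ± 0.24, adjusted p = 0.0608 (95% interval 0.80 to 1.79), Dtx3l (2.42 ± 0.51, adjusted p = 0.178) and Ifit3 (0.66 ± 0.14, adjusted p = 0.178). Ifit3 read 467, 278, 415 and 366 FPKM with light and Ifit1 127, 74.4, 109 and 162 FPKM. Oasl2 at 119.8, 87.7, 93.3 and 76.1 FPKM lay above each Control library. The Ifit1 interval, 0.31 to 1.17, excludes the LPS difference of the same time. Usp18 read 74.7, 43.8, 62.9 and 106 FPKM, Isg15 492, 462, 433 and 436 FPKM and Stat2 35.1, 16.1, 32.1 and 30.1 FPKM. Rsad2 was at 9.72, 3.73, 21.6 and 14.7 FPKM and Mx1 was listed at 0, 18.8, 11.6 and 5.50 FPKM. Each of these last 5 overlapped with Control.

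For the other members followed by library, Ifih1 read 18.8, 23.8, 24.9 and 11.4 FPKM, Parp14 8.92, 11.4, 7.01 and 13.1 FPKM and Irf7 106, 79.8, 79.8 and 23.4 FPKM in PBM 4 h. Zbp1 read 25.1, 34.1, 61.5 and 36.9 FPKM, Ifitm3 803, 801, 789 and 636 FPKM and Bst2 548, 463, 375 and 325 FPKM. All of them overlapped with Control 4 h, and over the 36 members the ratio of the group means had a median of 1.56 and was below 1 for Zbp1 alone (0.986). Microglial markers summed to 1665 to 2352 FPKM in PBM 4 h, overlapping with Control, and 0 of 18 were called, though 14 were below 0 (median -0.24). Of 12 astrocyte markers 10 were below 0 (median -0.26) and 0 called. Their part in the member values was not tested.

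At 24 h the median difference with light was nearer 0. Again 0 of 36 members were called by limma (0.0151% of genes were called higher) and 0 by limma-voom, with 5 higher at an unadjusted p under 0.05 (2.82% of genes). The median difference was 0.19 and 31 were above 0. Beside this, 11 of 12 astrocyte markers were below 0 (median -0.52) and 0 called, and their part was not tested. Oasl2, at 270.3, 252, 228 and 289.9 FPKM (0.54 ± 0.17, adjusted p = 0.571), and Stat2, at 79.5, 78.0, 110.0 and 103 FPKM (0.72 ± 0.23, adjusted p = 0.597), were the 2 members that did not overlap with Control (1.16% of genes). Ifit1 followed, at 311, 338, 397 and 415 FPKM (0.35 ± 0.14, adjusted p = 0.75, 95% interval 0.05 to 0.64). Over time in PBM, the smallest adjusted p belonged to Ifit1 (1.66 ± 0.18, adjusted p = 3.71e-07), Ifit3 (1.39 ± 0.18, adjusted p = 1.48e-05), Parp14 (1.80 ± 0.24, adjusted p = 1.48e-05) and Stat2 (1.71 ± 0.24, adjusted p = 3.36e-05), followed by Oasl2 (1.47 ± 0.21), Ifit3b (1.34 ± 0.22), Trim30a (1.27 ± 0.22) and Ifih1 (1.67 ± 0.30), and the largest changes added Herc6 (1.76 ± 0.43). The light effect at 24 h minus that at 4 h called 0 members (0.00718% of genes were called lower), with 6 lower at an unadjusted p under 0.05 (2.57% of genes), and Oas1a (-1.57 ± 0.50, adjusted p = 0.683), Dtx3l (-2.01 ± 0.69, adjusted p = 0.788) and Rsad2 (-1.84 ± 0.67, adjusted p = 0.802) had the smallest p.

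The other members followed by library at 24 h with light overlapped with Control. Ifit3 read 743, 988, 1121 and 1157 FPKM, Rsad2 14.8, 15.4, 36.8 and 33.2 FPKM and Mx1 12.5, 12.3, 37.1 and 25.2 FPKM. Isg15 read 467, 829.8, 739.9 and 655 FPKM, Usp18 82.9, 124, 149 and 213 FPKM and Irf7 88.8, 125, 161 and 131 FPKM. In each of these 6 PBM and Control libraries overlapped. Ifih1 was at 49.0, 59.1, 69.7 and 75.7 FPKM, Parp14 at 31.1, 43.2, 37.5 and 36.7 FPKM and Zbp1 at 45.7, 89.5, 73.1 and 95.4 FPKM. The entry block Ifitm3 read 711, 721, 940.0 and 772 FPKM and the tether Bst2 538, 497, 601 and 625 FPKM, again within or across the Control range.

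Adding light to LPS changed no member by the test at either time. At 4 h, LPS+PBM against LPS called 0 of 36 members by limma or limma-voom (0% of 13247 genes were called in either direction), and 3 were lower at an unadjusted p under 0.05 (4.31% of genes were lower). The median difference was -0.09, against -0.02 over all genes, and 26 of 36 were below 0. The smallest p were those of Oasl2 (-0.58 ± 0.25, adjusted p = 0.59, 95% interval -1.09 to -0.07), Parp9 (-0.69 ± 0.30, adjusted p = 0.602) and Dhx58 (-1.02 ± 0.46, adjusted p = 0.634). Ifit3, at 1013, 1324, 1131 and 1247 FPKM, was lower than in LPS with no overlap, the 1 member of which this was true (2.14% of genes). Ifit1, at 389.8, 496, 454 and 542 FPKM, differed by -0.09 ± 0.20 (95% interval -0.52 to 0.34), and Rsad2, at 414, 532, 396 and 557 FPKM, by 0.41 ± 0.52 (-0.69 to 1.51). These intervals leave room for differences in either direction. Astrocyte markers summed to 2292 to 2741 FPKM in LPS+PBM and 1764 to 2278 in LPS, with no overlap. Of 12 such markers 11 were above 0 (median 0.64, against -0.02 over all genes) and 0 were called. Their part in the member values was not tested.

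The other members followed by library in LPS+PBM at 4 h overlapped with LPS, some with most libraries lower. Irf1, outside these, went the other way with overlap, at 75.8, 124, 93.4 and 95.3 FPKM against 73.2, 69.6, 42.2 and 82.6 FPKM in LPS 4 h. Mx1 read 83.7, 163, 98.9 and 148 FPKM, Isg15 699, 667, 820.2 and 699 FPKM and Usp18 185, 193, 150.3 and 254 FPKM. Stat2 read 59.3, 59.3, 50.5 and 78.2 FPKM, Irf7 90.1, 136, 115 and 123 FPKM and Oasl2 118, 134, 155 and 246 FPKM. Of the Oasl2 libraries 3 lay below every LPS library. Ifih1 was at 90.6, 115, 70.7 and 87.2 FPKM, Parp14 at 70.3, 79.3, 75.8 and 109 FPKM, Zbp1 at 75.9, 25.8, 115 and 36.8 FPKM, Ifitm3 at 1077, 835, 872 and 766 FPKM and Bst2 at 630.2, 301, 364 and 381 FPKM, and for Bst2 as well 3 libraries lay below every LPS library.

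Against cells given light alone, LPS+PBM at 4 h called 15 members higher and 0 lower (1.80% of genes), with a median of 1.02 (-0.16 over all genes) and 22 not overlapping (3.86% of genes). All 15 were among the 25 called for LPS without light, 60.0% of that list and 100.0% of this one. The smallest adjusted p belonged to Ifit2 (3.29 ± 0.23, adjusted p = 3.8e-08), Ifit3 (1.64 ± 0.14, adjusted p = 5.94e-07), Parp14 (2.94 ± 0.29, adjusted p = 2.75e-06) and Rsad2 (5.34 ± 0.52, adjusted p = 2.89e-06), followed by Cmpk2 (4.67 ± 0.46), Ifit1 (2.03 ± 0.20), Ifit3b (1.77 ± 0.24) and Ifih1 (2.18 ± 0.30), and the largest changes added Mx1 (4.24 ± 0.75). The difference between the 2 LPS effects was tested as an interaction. It called 0 members by limma (0% of genes were called lower) and 0 by limma-voom, with 12 lower and 0 higher at an unadjusted p under 0.05 (3.62% of genes lower). The fitted value was below 0 for 35 of 36 members, with a median of -0.74, against -0.07 over all genes, and Ifit3 (-0.95 ± 0.20, adjusted p = 0.203), Ifit3b (-1.50 ± 0.34, adjusted p = 0.252) and Oasl2 (-1.55 ± 0.35, adjusted p = 0.252) had the smallest p. The interaction is the light difference with LPS minus the light difference without it, so it restates the medians of -0.09 and 0.62 given above.

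At 24 h, LPS+PBM against LPS called 0 members by limma or limma-voom (0.00753% of genes were called lower), and 0 were past an unadjusted p under 0.05 (2.52% of genes were higher and 2.62% lower at that level). The smallest p were those of Ifitm3 (-0.21 ± 0.11, adjusted p = 0.964), Rtp4 (-0.54 ± 0.32, adjusted p = 0.964) and Trim30a (0.32 ± 0.20, adjusted p = 0.964). Ifit1 read 317, 317, 302 and 364 FPKM, Ifit3 959.8, 1075, 835 and 953 FPKM and Isg15 599.6, 654, 556 and 785 FPKM. Rsad2 read 31.8, 47.9, 46.1 and 34.5 FPKM, Mx1 13.5, 15.0, 48.3 and 30.1 FPKM and Usp18 170.0, 153, 154 and 213 FPKM. All 6 overlapped with LPS 24 h. Against light alone, 1 member was called higher (1.81% of genes), Oas1a (1.23 ± 0.29, adjusted p = 0.0248), which shares most of its sequence with Oas1g and lost its call in 6 of the 8 fits that left out 1 library. The interaction at 24 h called 0 members by limma and limma-voom (0.00753% of genes were called lower; 3 members and 2.69% of genes were lower at an unadjusted p under 0.05), with Oasl2 (-0.68 ± 0.23, adjusted p = 0.724), Ifit1 (-0.56 ± 0.20, adjusted p = 0.767) and Ifitm3 (-0.34 ± 0.15, adjusted p = 0.912) at the smallest p.

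The last members by library in LPS+PBM 24 h again overlapped with LPS 24 h. Irf7 read 148, 263, 143 and 179.7 FPKM, Stat2 65.1, 60.2, 50.9 and 64.4 FPKM and Oasl2 161, 197, 157 and 237 FPKM. Ifih1 read 44.3, 68.2, 43.2 and 77.2 FPKM, Parp14 53.8, 70.4, 50.8 and 58.7 FPKM and Zbp1 155, 139.8, 121 and 149 FPKM. Ifitm3 was at 966, 1099, 958 and 835 FPKM and Bst2 at 703, 650.4, 555 and 532 FPKM. Of the whole set, 1 member, Trim30a, was higher than in LPS with no overlap and 2, Rtp4 and Lgals3bp, were lower (1.11% and 1.13% of genes).

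**Figure D5:**
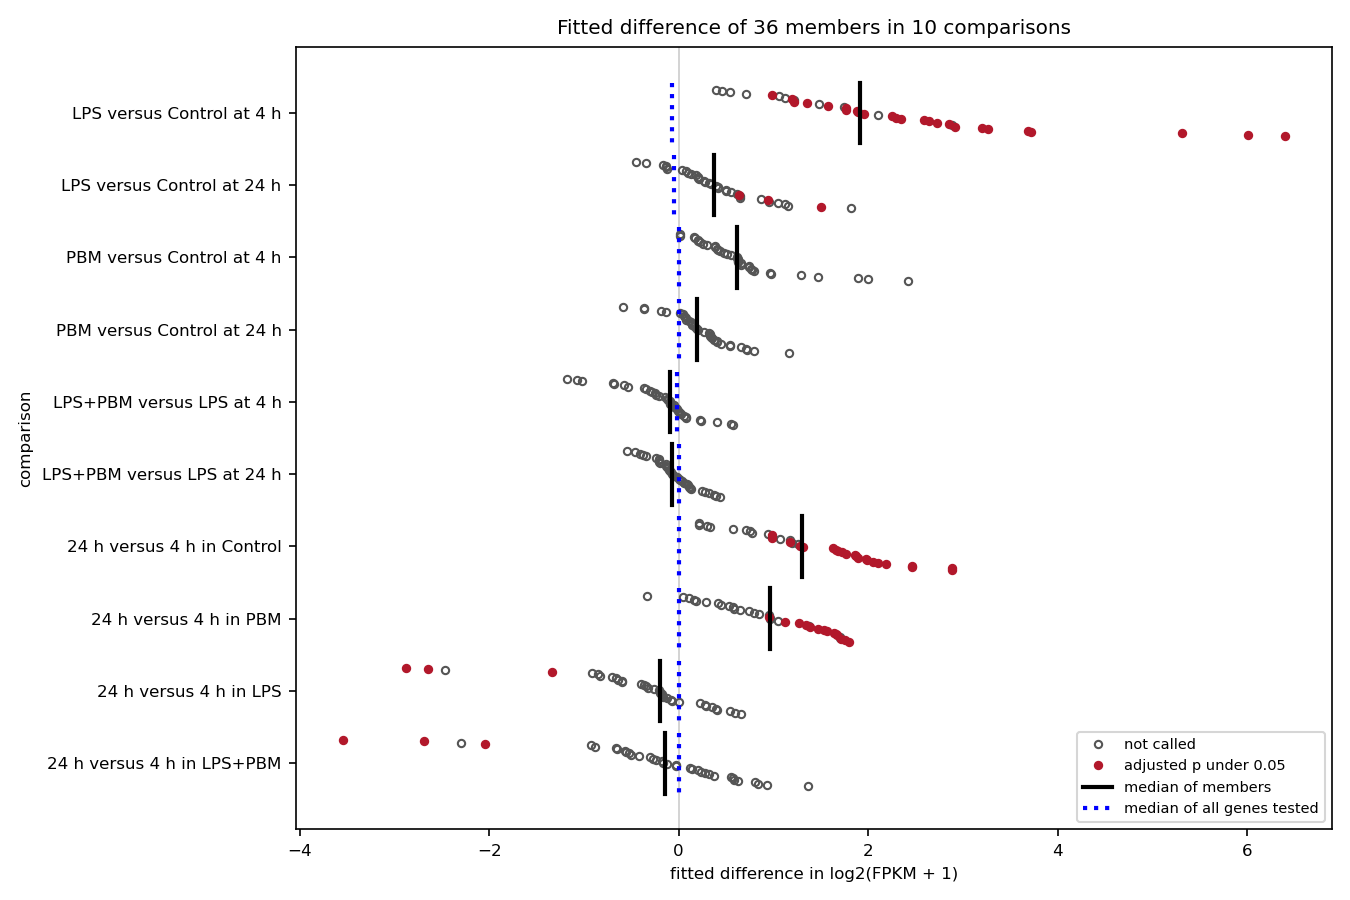
Fitted log2 difference of each of the 36 members (limma on log2(FPKM + 1)) on the horizontal axis, with 1 row of points for each comparison of LPS, light and time. Filled red points have an adjusted p under 0.05 and open points do not; the black bar is the median of the members and the blue dotted line that of all genes tested. LPS at 4 h spans 0.40 to 6.40, light alone at 4 h is above 0 for all members with a median of 0.62, and light added to LPS is centred near 0 (median -0.09).

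Upstream of the members, the interferon genes themselves were barely seen. Of 16 ligand genes 13 were listed at 0 in all 32 libraries. Ifnb1, interferon beta, was listed at 0 in all libraries except LPS 24 h replicates 2 and 4, at 9.62 and 9.72 FPKM. A value of 0 at this depth does not show absence. The receptor chain Ifnar1 read 13.4, 25.4, 27.8 and 35.7 FPKM in Control 4 h and 51.4, 44.8, 80.5 and 89.3 FPKM in LPS 4 h, with no overlap but no call (1.36 ± 0.35, adjusted p = 0.0501). Ifnar2 overlapped (0.40 ± 0.61). The kinases Jak1 (0.22 ± 0.20) and Tyk2 (0.37 ± 0.56) were not called.

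Of 19 induction genes tested at 4 h of LPS 3 were called higher and 0 lower: Ifi204, a DNA sensor (2.01 ± 0.34), Rigi, the RNA sensor RIG-I (1.60 ± 0.29), and Ikbke, a kinase that activates IRF3 (2.87 ± 0.66). Irf3 (1.59 ± 0.74), Tlr3 (1.75 ± 0.55), Tlr4 (0.44 ± 0.54) and Ticam1 (-1.87 ± 0.78) were not called. Of 11 inhibitors 2 were called, Tnfaip3 (3.33 ± 0.39) and the phosphatase Ptpn2 (1.98 ± 0.43). A further list of 68 interferon-stimulated genes outside the set had 27 called higher and 0 lower, with a median of 1.62. Over all genes in this comparison 1.75% were called higher and the median was -0.07. Examples are the DNA sensor family member Ifi203 (2.88 ± 0.29), Slfn2 (3.44 ± 0.36), the checkpoint ligand Cd274 (4.20 ± 0.45) and Tor3a (1.93 ± 0.24). For light alone at 4 h, 0 of these 68 were called, 47 were above 0 and 19 below, with a median of 0.21. Of all genes 0.0151% were called higher there and 50.0% were above 0. In Control 15 of 68 were called higher at 24 h than at 4 h (0.596% of all genes), and in PBM 8 of 68 (0.509%). With LPS at 24 h 4 of 67 tested were called higher, Tapbp, Slfn2, Phf11d and Ifi211 (1.62% of all genes).

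The genes outside the set whose group means were most like the members' were found by Pearson correlation over the 8 groups with the mean profile of the set, among 10694 genes of at least 5 FPKM in some group. The top 10 were Tap1, the antigen peptide transporter (r = 0.987), Irgm2 (0.981), Helz2 (0.978), Ifi203 (0.977), Rnf213 (0.977), Nlrc5 (0.974), Slfn8 (0.973), Parp12 (0.973), Igtp (0.972) and Tor3a (0.970). With 8 points that share libraries this is a description. Tap1 had group means of 16.1 FPKM in Control 4 h, 28.6 in PBM 4 h, 91.3 in LPS 4 h, 66.4 in LPS+PBM 4 h, 39.6 in Control 24 h, 59.5 in PBM 24 h, 69.3 in LPS 24 h and 62.2 in LPS+PBM 24 h.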

How the data were processed

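Expression of 32 RNA sequencing libraries of primary mouse astrocytes was taken from 1 table of FPKM values that the authors deposited, scaled by them to transcript length and library size. Per the labels' protocols, Trizol was used to extract the RNA, and cDNA over the full length was primed with oligo-dT and amplified after template switching. No molecular identifiers are named, so floors cover counting error only. Per the submitters' processing notes, the tools were RSEM, StringTie 1.3.1, HISAT2, Bowtie2 2.2.8 and fastp 0.18.0, and the build mm10. No source used here says which tool made the FPKM values, or with which annotation and strand. Of the gene IDs, 21806 matched GENCODE M21 (GRCm38).

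From these values log2(FPKM + 1) was fitted with limma 3.58.1 in R 4.3.3 (intensity trend, robust variances) for genes whose mean reached 1 FPKM in any group of the fit; the script was tested on simulated data. Comparisons within a time used the 16 libraries of that time, comparisons of times all 32. The Benjamini-Hochberg adjustment ran over all genes tested, and a gene was called at an adjusted p under 0.05. The FPKM values of single-transcript genes come in steps, from which the depth was worked out as 130767 to 143853 fragments per library. The members, pathway lists and tests were chosen with earlier results of these data known. All members were accounted for, 14 were given in every library, and in each comparison all called members were named where 12 or fewer were called, otherwise the 8 with the smallest p and the 4 with the largest change, and the 3 with the smallest p where none was called. Pathway lists were named by up to 4 called genes plus 10 set genes. Part of the pathway genes is not reported here. Replicate numbers recur in every group, and no pairing of libraries by number was seen. Alternatives were other pseudocounts, leaving genes with low values in, quantile normalization, other sets of fitted libraries, a replicate block, leaving out each library and, added after the data were seen, limma-voom on approximate fragments and leaving out the 6 libraries listed last in the table.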

Additional observations from a re-analysis of the deposited data

Results flagged for a closer look

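Of 279 sets of 4 libraries (1 member in 1 group, with a mean of at least 5 FPKM), 13 held a library whose gap to its nearest neighbour passed the Dixon limit for 4 values, as a share of the range of the set. Chance flags about 1 in 20 such sets, which is close to the number found. In Control 4 h these were Isg15 in replicate 3 (473.6 FPKM, others 269.1 to 297.8), Parp14 in replicate 4 (13.17 FPKM) and Zbp1 in replicate 1 (3.75 FPKM). In PBM 4 h they were Ifitm3 in replicate 4 (636.4 FPKM), and Eif2ak2 and Herc6 in replicate 2 (17.99 and 17.76 FPKM). LPS 4 h had Rtp4 in replicate 2 (127.5 FPKM), and Control 24 h had Mx1 in replicate 1 (50.29 FPKM). LPS 24 h had Cmpk2 in replicate 3 (43.59 FPKM), Herc6 in replicate 1 (94.87 FPKM) and Lgals3bp in replicate 3 (553.0 FPKM). LPS+PBM 24 h had Parp9 in replicate 4 (98.65 FPKM) and Herc6 in replicate 2 (36.51 FPKM). Herc6, which shares 23.8% of its 50-base words with Gm45193, was the member that stood apart in the most groups, 3.

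The LPS effect differed between 24 h and 4 h, by a test of that difference in limma, for 15 members. In log2 units the effect at 24 h minus that at 4 h was -5.78 for Rsad2, -5.36 for Mx1, -5.10 for Cmpk2, -3.37 for Dtx3l, -3.22 for Ifit2 and -2.85 for Ifit3b. It was -2.46 for Ifit3, -2.45 for Ifit1, -2.37 for Ifih1, -2.26 for Parp14, -2.10 for Oasl2 and -2.09 for Stat2. The smallest were -1.83 for Usp18, -1.67 for Eif2ak2, whose call was lost in 9 of 23 settings, and -1.16 for Isg15. All 15 lie on the same side, and in each the Control level was higher at 24 h than at 4 h.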

How the results depend on the processing

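The count of interferon members called kept its direction in every alternative run and stayed within 1.5 times its value except as follows. With all 32 libraries in 1 fit, PBM versus Control at 4 h went from 0 to 1, the LPS by PBM interaction at 4 h from 0 to 1, and LPS+PBM versus PBM at 24 h from 1 to 0. With the groups compared alone, LPS versus Control at 24 h went from 3 to 1. In that setting 24 h versus 4 h went from 22 to 6 in Control, 14 to 7 in PBM and 3 to 6 in LPS. The spread is estimated from fewer libraries there, and the counts moved in both directions. With limma-voom on approximate fragments, chosen after seeing the data, LPS versus Control at 24 h gave 6, LPS+PBM versus PBM at 24 h gave 2, and 24 h versus 4 h gave 8 in LPS and 7 in LPS+PBM. Without the 6 libraries listed last, also chosen after seeing the data, LPS versus Control at 24 h gave 1, LPS+PBM versus PBM at 24 h gave 0, and 24 h versus 4 h gave 9 in PBM and 0 in LPS. The causes of these moves were not tested.

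Leaving out 1 library at a time gave 21 to 28 for LPS versus Control at 4 h, 1 to 5 at 24 h, 0 to 1 for PBM versus Control at 4 h and for the interaction at 4 h, 12 to 15 for LPS+PBM versus PBM at 4 h, and 0 to 1 at 24 h. Over time it gave 17 to 23 in Control, 9 to 14 in PBM (9 without PBM 24 h replicate 2), 2 to 3 in LPS and 3 to 4 in LPS+PBM, and 14 to 17 for the change of the LPS effect. Over single genes 14636 results stayed on their side of the threshold, called or not, 545 lost a call and 95 gained one, and 0 reversed with a call. With quantile normalization the median of all genes in LPS+PBM versus PBM at 4 h moved from -0.164 to -0.048 while that of the members was 1.01. No pairing by replicate number was seen. Residuals of same-numbered libraries correlated at -0.024 to 0.031 over 12007 genes (48 pairs, 0 above 0.1), and 9 of 32 libraries were closest to their own number. At this depth counting error is large, so the check cannot exclude a pairing. With the replicate number as a block the count was 23 for LPS versus Control at 4 h, 2 at 24 h, 14 for LPS+PBM versus PBM at 4 h, 22 over time in Control and 16 for the change of the LPS effect, and no count moved past 1.5 times. At this depth members with low levels, such as Oas3 (about 1 fragment in Control 4 h) and Oasl1 (about 2), are the least precise.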

Other observations

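Genes that answer mainly to interferon gamma were too low for a fall or a small rise to be tested well. Of 8 such genes 6 were tested at 4 h of LPS and 0 were called by limma, with 2 above 0 and 4 below. Their summed level was 2.56 to 27.44 FPKM in Control 4 h and 0 to 18.14 FPKM in LPS 4 h, which is near the limit of detection. A fall or a small rise in them was therefore not detectable at this depth. Rises as large as those of Rsad2 and Cmpk2, from Control 4 h means of 4.3 and 4.55 FPKM, were called. Oasl1 rose from a mean of 1.675 FPKM in Control 4 h to 14.54 FPKM in LPS 4 h, with no overlap, and was not called. A large rise of a low gene could therefore be missed too. Ifng was listed at 0 in all libraries. Socs3, the feedback inhibitor of JAK-STAT signalling that the study's title names, was not called for LPS at 4 h (-0.84 ± 0.66, adjusted p = 0.66). In PBM versus Control at 24 h it was the 1 of 11 inhibitors called, and lower (-3.06 ± 0.50, adjusted p = 0.0104). It was called higher in LPS+PBM versus PBM at 4 h (2.73 ± 0.66, adjusted p = 0.0291) and at 24 h (3.29 ± 0.50, adjusted p = 0.00054). In PBM versus Control at 24 h the inhibitor list as a whole had a median of -0.49, while the members had 0.19.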
